A study of Arabidopsis thaliana with 6 samples.

Results

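The phosphate starvation response genes are 10 Arabidopsis thaliana loci taken by locus name from both deposited tables: SPX1 (AT5G20150), SPX3 (AT2G45130), IPS1 (AT3G09922), PHO2 (AT2G33770), PHT1;1 (AT5G43350), PHT1;4 (AT2G38940), PHO1 (AT3G23430), SQD2 (AT5G01220), MGD2 (AT5G20410) and MGD3 (AT2G11810). All 10 were found among the 32548 genes that each table lists; the rule uses names only, though the genes were picked with earlier results of these data known. RNA was sequenced from whole seedlings aged 2 weeks, grown on plates of MS (Murashige and Skoog) medium in days of 16 h light and 8 h darkness, at 23 °C. There were 2 libraries labelled epl1a/b(-/-) and 2 of wild type Col-0, and, in a separate table, 1 library of Col-0 seedlings whose plates were kept in foil for darkness and 1 of Col-0 in the light. EPL1A and EPL1B encode plant relatives of the yeast scaffold subunit of NuA4, a complex that acetylates histone H4, and the series addresses what that complex does for chlorophyll synthesis and photosynthesis. No label gives a phosphate treatment, so nothing here compares plants starved of phosphate with plants fed it. The alleles and insertion sites behind the mutant genotype, and the length of the dark treatment, are given in none of the sources used.

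When phosphate is scarce, the transcription factor PHR1 and its relatives bind an element called P1BS in the promoters of many genes, and the transcripts of those genes accumulate. SPX proteins bind inositol pyrophosphates when phosphate is ample and then hold PHR1 back. Starved plants make miR399, a microRNA that directs cleavage of the PHO2 transcript; PHO2 is a ubiquitin-conjugating enzyme that removes phosphate transporters and PHO1. IPS1 and At4 are RNAs that bind miR399 without being cut and so titrate it. Starved plants also replace membrane phospholipids with sulfolipid, made by SQD2, and with galactolipid, made by the MGD and DGD enzymes.

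The sequences through which IPS1, At4 and PHO2 meet miR399 are shown first, because these transcripts gave some of the widest differences between libraries described below. They were read from the RefSeq annotation of build TAIR10.1; the submitters' processing notes name TAIR10, and the deposited tables hold no coordinates. The mature miRNAs, 5′ to 3′ and written with T, have the seed (bases 2 to 8) in capitals, and the 4 variants shown have 1 seed in common.
ath-miR399a: tGCCAAAGgagatttgccctg
ath-miR399b: tGCCAAAGgagagttgccctg
ath-miR399d: tGCCAAAGgagatttgccccg
ath-miR399f: tGCCAAAGgagatttgcccgg

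PHO2 carries 5 matches to these miRNAs, each in the annotated 5′ UTR on the minus strand of chromosome 2. They lie at chr2:14282106-14282126, chr2:14281973-14281993, chr2:14281884-14281904, chr2:14281827-14281847 and chr2:14281770-14281790, and the capitals mark the bases that pair with the seed.
PHO2 site 1: tagggcaaatcttCTTTGGCa
PHO2 site 2: tagggcatatctcCTTTGGCa
PHO2 site 3: ttgggcaaatctcCTTTGGCa
PHO2 site 4: tcgagcaaatctcCTTTGGCa
PHO2 site 5: tagagcaaatctcCTTTGGCa

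Against miR399a, 4 of the 5 PHO2 sites had 2 mismatches over 21 positions and site 4 had 3, with 0 in the seed at each. IPS1 and At4 each carry 1 match, on the plus strand at chr3:3051224-3051247 for IPS1 and chr5:895149-895172 for At4. Both lie in stretches that RefSeq annotates as coding, although the 2 genes are known as non-coding RNAs. Unlike the PHO2 sites, these hold 3 extra bases across from position 10 of the miRNA, where a target would be cut.
IPS1 site: ttgggcaacttctatcCTTTGGCa
At4 site: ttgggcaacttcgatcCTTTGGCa

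The element P1BS was searched as GNATATNC, which reads the same on both strands, in the 1000 bases before each annotated start. It was present before 7 of the 10 genes, whereas 20.1% of all 32548 genes had it. Within 300 bases it was present before 2 of the 10, SPX3 and MGD2, against 6.44% of all genes. PHT1;4, PHO1 and MGD3 had none within 1000 bases, which says only that these letters are not in that window. A stretch is shown for a gene with 2 elements close together (IPS1, chr3:3050397-3050458, plus strand, 582 and 548 bases before the start), for a gene that was higher in the libraries labelled epl1a/b (PHT1;1, chr5:17402909-17402954, minus strand, 786 and 768 bases before) and for one that was lower (SQD2, chr5:90440-90467, minus strand, 340 bases before), with the element in capitals.
IPS1 upstream: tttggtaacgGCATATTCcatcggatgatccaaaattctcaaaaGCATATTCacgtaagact
PHT1;1 upstream: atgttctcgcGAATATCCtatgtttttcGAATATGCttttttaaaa
SQD2 upstream: tatgtgaagcGAATATTCattggaatag

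The libraries themselves were checked against their labels. The genotype table holds normalised read counts, from which 19088784 and 19067459 whole reads were recovered for the libraries labelled epl1a/b and 18796289 and 18821439 for wild type, so depth was nearly equal. The dark library had 18798088 counts and the light library 27831231. EPL1A had 93.8 and 79.2 normalised counts in the libraries labelled epl1a/b, against 282 and 225 in wild type. EPL1B had 4656 and 4399 in the libraries labelled epl1a/b, against 335 and 351 in wild type, a 13.2-fold higher level, so the transcript of 1 of the 2 targeted genes goes against a simple loss and directions below are those of the libraries as labelled. The titles of the libraries labelled epl1a/b also carry the name of a histone mark, H4K5Ac, while their other labels give total RNA. Summed over 5 shoot (mesophyll) marker genes, the normalised count was 391151 and 386686 in the libraries labelled epl1a/b and 847664 and 772346 in wild type, and all 5 were lower. Over 12 root marker genes it was 3858 and 4715 in the libraries labelled epl1a/b and 5049 and 4645 in wild type, with 1 gene higher, 4 lower and a median log2 change of -0.65. The higher one was SCR, a ground tissue factor and the largest term of the sum, with 1691 and 1852 in the libraries labelled epl1a/b, against 1504 and 1297 in wild type. Over 5 seed marker genes it was 73.3 and 48.9 in the libraries labelled epl1a/b and 7.38 and 6.24 in wild type, with oleosin OLEO2 at 0 in all 4 libraries. Only 3 of the 5 could be tested, with 2 higher and OLEO1 not called. SESA4 had 31.4 and 34.2 in the libraries labelled epl1a/b, against 1.06 and 1.04 in wild type. SESA1 had 24.4 and 0, against 0 in both wild type libraries, so the sums rest on few reads. In bulk seedlings, fewer cells of a type and less RNA per cell cannot be told apart, and the part of tissue make-up in the results below was not tested.

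Between the libraries labelled epl1a/b and wild type, the 10 genes did not move as 1 group. The high-affinity phosphate importer PHT1;1 and the galactolipid synthase MGD3 were higher, and the xylem-loading exporter PHO1 and the sulfolipid synthase SQD2 were lower. The other 6 did not pass the test. The test was limma on log2(value + 1), and calls needed an adjusted p (Benjamini-Hochberg, over the 23658 genes tested) under 0.05; all 10 passed the filter on low values. The test called 46.7% of all genes, 22.5% as higher and 24.1% as lower, so 4 called of 10 is near the background. The median log2 change was 0.03 over the 10 genes and 0.02 over all genes tested. Both libraries of 1 genotype lay above both of the other for 6 of the 10 genes, against 75.7% of all genes. With 2 libraries a genotype, and no label saying that they came from separate cultures, each p-value speaks only of the spread between the 4 libraries, which may be technical.

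**Figure D1:**
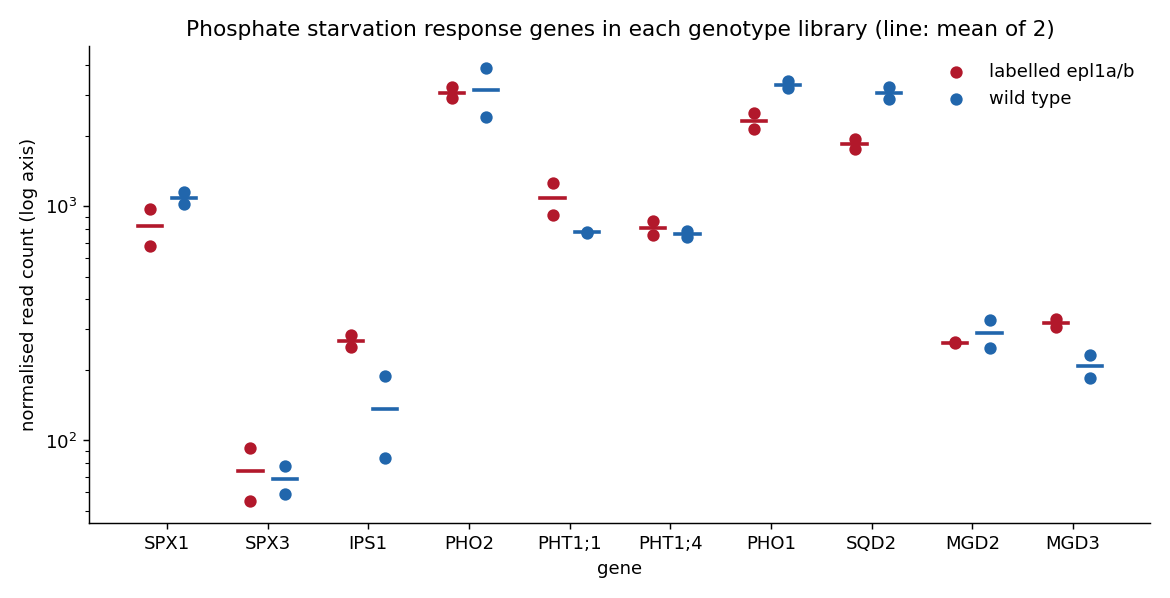
Normalised read counts (log axis) of the 10 phosphate starvation response genes in each library, with the 2 libraries labelled epl1a/b to the left of the 2 wild type libraries for each gene and a line at the mean of 2. The points of PHO1 and SQD2 lie lower, and those of PHT1;1 and MGD3 higher, in the libraries labelled epl1a/b, while the wild type points of IPS1 and PHO2 lie far apart.

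Among the sensors, SPX1, which restrains PHR1 in the nucleus, had 974 and 679 normalised counts in the libraries labelled epl1a/b, against 1020 and 1153 in wild type. Both values of the libraries labelled epl1a/b lay below both wild type values, but the first was close to the lower wild type one. The log2 change was -0.41 ± 0.18 (SE, n = 2 each), with a limma adjusted p of 0.123 and a 95% interval of -0.88 to 0.05. Without replicate 1 of the libraries labelled epl1a/b the change was -0.68 (limma adjusted p = 0.0216). SPX3, a nuclear SPX protein of the same kind, had 92.6 and 55.2 in the libraries labelled epl1a/b, against 59.3 and 77.7 in wild type. The wild type values lay between the other 2, and the log2 change was 0.07 ± 0.28 (limma adjusted p = 0.848, 95% interval -0.58 to 0.73). Leaving out wild type replicate 1 turned its sign to -0.12, and leaving out replicate 1 of the libraries labelled epl1a/b turned it to -0.29.

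In the miR399 circuit, IPS1 had 249 and 282 normalised counts in the libraries labelled epl1a/b, against 189 and 84.5 in wild type. The genotypes did not overlap, and the wild type libraries stood 1.15 apart on the log2 scale, a gap that 0.536% of wild type genes of like level exceeded. The log2 change was 1.06 ± 0.42 (SE, n = 2 each), with a limma adjusted p of 0.115 and a 95% interval of -0.11 to 2.23. Which wild type library was kept decided its size and its call: the change was 1.64 without replicate 1 (limma adjusted p = 0.00802) and 0.48 without replicate 2, where it was not called. DESeq2 on the recovered reads called it, at 0.96 (DESeq2 adjusted p = 0.0132).

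PHO2, the transcript that miR399 targets at the 5 sites above, had 2893 and 3215 normalised counts in the libraries labelled epl1a/b, against 2406 and 3894 in wild type. Both values of the libraries labelled epl1a/b fell between the 2 wild type values. The wild type gap was 0.69 on the log2 scale, larger than in all but 0.361% of genes of like level, whose median gap was 0.0911. Of the 2 wild type libraries, replicate 1 had the higher IPS1 and the lower PHO2 value. The log2 change of PHO2 was -0.01 ± 0.26 (limma adjusted p = 0.988), and its 95% interval of -0.73 to 0.72 leaves room for differences in either direction. Its sign turned to 0.34 without wild type replicate 2, and to 0.07 without replicate 1 of the libraries labelled epl1a/b. At4, a relative of IPS1, had 1127 and 934 in the libraries labelled epl1a/b, against 1080 and 820 in wild type, and these overlapped (log2 change 0.12 ± 0.16, limma adjusted p = 0.549). It too changed sign, to -0.07 without wild type replicate 2 and to -0.01 without replicate 1 of the libraries labelled epl1a/b. The loci MIR399A, MIR399B, MIR399E and MIR399F were listed at 0 in all 4 libraries; MIR399C had 2.67 and 0.814, and MIR399D 2.71 and 0, in the libraries labelled epl1a/b, against 0 in wild type. These values are too low to test, and mature miRNAs were not measured.

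Among the transporters, PHT1;1, a plasma membrane importer active in roots, had 917 and 1251 normalised counts in the libraries labelled epl1a/b, against 770 and 777 in wild type. The genotypes did not overlap; the wild type values were nearly alike and the others 0.45 apart on the log2 scale. It was 1.38-fold higher (log2 change 0.47 ± 0.14, SE, n = 2 each, limma adjusted p = 0.0370). The call was lost without wild type replicate 1 (0.46, limma adjusted p = 0.176), without wild type replicate 2 (0.48, limma adjusted p = 0.162) and without replicate 2 of the libraries labelled epl1a/b (0.25, limma adjusted p = 0.0974). PHT1;4, the other major root importer, had 752 and 866 in the libraries labelled epl1a/b, against 742 and 784 in wild type. These overlapped, with a log2 change of 0.08 ± 0.09 (limma adjusted p = 0.499, 95% interval -0.13 to 0.29), which was -0.02 without replicate 2 of the libraries labelled epl1a/b. PHT1;2 and PHT1;3, neighbours of PHT1;1 on chromosome 5, were barely detected: PHT1;2 had 4.22 and 8.88 in the libraries labelled epl1a/b against 8.38 and 3.16 in wild type, and PHT1;3 had 3.54 and 1.68 against 0 in both wild type libraries. No stretch of 50 bases in the exons of the 10 genes occurred a second time in the genome.

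PHO1, which exports phosphate from root cells toward the xylem, had 2500 and 2142 normalised counts in the libraries labelled epl1a/b, against 3188 and 3411 in wild type. Both values lay below both wild type values. It was 1.42-fold lower (log2 change -0.51 ± 0.09, SE, n = 2 each, limma adjusted p = 0.00294), and the call was lost without wild type replicate 2 (-0.46, limma adjusted p = 0.0529).

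For the lipid enzymes, SQD2, which completes sulfolipid synthesis in the plastid, had 1931 and 1756 normalised counts in the libraries labelled epl1a/b, against 3219 and 2878 in wild type. The 2 genotypes were well apart, and SQD2 had the lowest limma adjusted p of the 10 genes. It was 1.65-fold lower (log2 change -0.72 ± 0.09, SE, n = 2 each, limma adjusted p = 0.000402), and it stayed called whichever single library was left out. Without the filter on low values SQD2 was not called (limma adjusted p = 0.0623), nor were the other 3 called genes. MGD3, a galactolipid synthase of the outer plastid envelope, had 304 and 331 in the libraries labelled epl1a/b, against 184 and 232 in wild type. Both values lay above both wild type values, and the gene was 1.53-fold higher (log2 change 0.61 ± 0.14, limma adjusted p = 0.00758). That call was lost without wild type replicate 1 (0.45, limma adjusted p = 0.0567) and without replicate 1 (0.68, limma adjusted p = 0.0612) or replicate 2 (0.55, limma adjusted p = 0.0980) of the libraries labelled epl1a/b. MGD2, its close relative at the same envelope, had 261 and 262 in the libraries labelled epl1a/b, against 248 and 327 in wild type. The 2 nearly equal values fell between the wild type ones, with a log2 change of -0.12 ± 0.14 (limma adjusted p = 0.505, 95% interval -0.45 to 0.20), which was 0.07 without wild type replicate 2.

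Per kilobase of exon, the levels of the 10 genes differed widely. In the libraries labelled epl1a/b the mean normalised count per kilobase was highest for SQD2 at 810 and PHO1 at 775, followed by PHO2 at 731 and SPX1 at 685. PHT1;1 at 539 and IPS1 at 490 came next, then PHT1;4 at 405, MGD3 at 165, MGD2 at 137 and SPX3 at 80.6. In wild type the level per kilobase was highest for SQD2 at 1340 and PHO1 at 1102, with SPX1 at 901, PHO2 at 754, PHT1;1 at 384, PHT1;4 at 382, IPS1 at 253, MGD2 at 150, MGD3 at 108 and SPX3 at 74.8. SQD2 and PHO1 therefore stood first in both genotypes, while IPS1 stood above PHT1;4, and MGD3 above MGD2, only among the means of the libraries labelled epl1a/b. The 2 wild type libraries of PHO2 and IPS1 were too far apart for their places to be firm.

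The related phosphate genes, 71 loci in 6 lists, also split evenly in direction. Of 63 tested, 16 were higher, 16 lower and 31 were not called, with a median log2 change of -0.05. That is 50.8% called, against 46.7% of all genes.

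**Figure D2:**
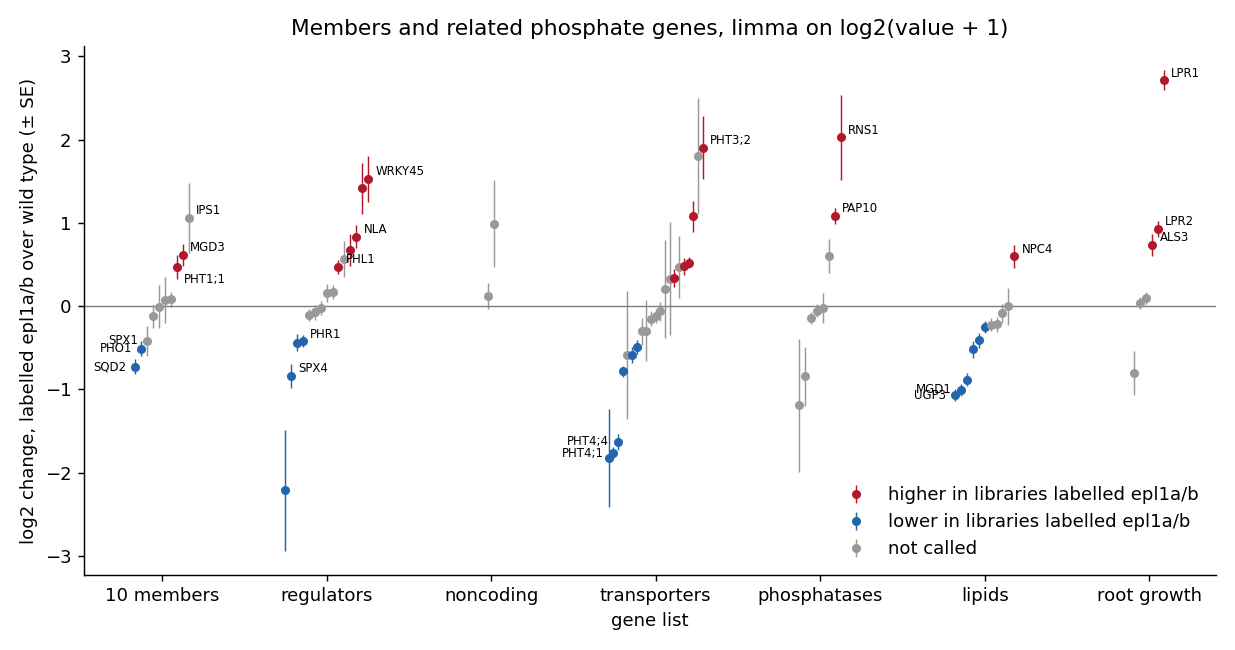
Log2 change (libraries labelled epl1a/b over wild type, with SE bars) of the tested genes of each list, red where limma called a gene higher, blue where lower and grey where not called. Of the lipid genes 6 are blue and 1 is red, while the 3 called root growth genes are red, with LPR1 at 2.71. Of the genes tested, 63.6% of the lipid list and 50% of the root growth list were called, against 46.7% of all genes.

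Of 15 regulators, 5 were higher and 4 lower, which is 60% called, against 46.7% of all genes. PHR1, the central transcription factor, had 820 and 860 normalised counts in the libraries labelled epl1a/b, against 1125 and 1126 in wild type (log2 change -0.42 ± 0.07, limma adjusted p = 0.00236). Its partner PHL1 had 439 and 433 against 310 and 318 in wild type (log2 change 0.47 ± 0.09, limma adjusted p = 0.00366). The 2 moved in opposite directions with no overlap in either, and PHR1 was not called with columns scaled to equal library totals (-0.18, limma adjusted p = 0.0665). SPX4, a cytosolic SPX protein, was 1.79-fold lower (log2 change -0.84 ± 0.15, limma adjusted p = 0.00290), whereas SPX2 did not pass the test (0.17 ± 0.08, limma adjusted p = 0.142). NLA, a ubiquitin ligase that removes PHT1 transporters, was 1.79-fold higher (log2 change 0.84 ± 0.14, limma adjusted p = 0.00200). The WRKY factors did not move together. WRKY6 was called lower, with 368 and 434 in the libraries labelled epl1a/b, against 536 and 547 in wild type (log2 change -0.44). WRKY75 did not pass the test (log2 change 0.57, limma adjusted p = 0.0612). WRKY42 and WRKY45, which are known to act on PHO1 or PHT1;1, were higher. WRKY42 had 45.7 and 33.8 in the libraries labelled epl1a/b, against 14.8 and 13.5 in wild type, and any fit that left out 1 library, other than replicate 2 of those labelled epl1a/b, did not call it. WRKY45 had 385 and 288 in the libraries labelled epl1a/b, against 89.1 and 148 in wild type (log2 change 1.53 ± 0.28, limma adjusted p = 0.00740), and was not called without replicate 1 of the libraries labelled epl1a/b (1.32, limma adjusted p = 0.0557). Of the 8 non-coding loci, only At4 and MIR827A passed the filter, and neither was called.

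Of 21 transporters tested, 5 were higher and 6 lower, which is 52.4% called, against 46.7% of all genes. The 2 with the lowest adjusted p were plastid-envelope or thylakoid carriers: PHT4;1 had 810 and 865 normalised counts in the libraries labelled epl1a/b against 2885 and 2804 in wild type, and PHT4;4 had 724 and 879 against 2496 and 2445. They were 3.39-fold (limma adjusted p = 2.58e-06) and 3.09-fold (limma adjusted p = 1.32e-05) lower, beside the shoot marker genes that were all 5 lower. PHT4;2, a carrier of root plastids, was 2.11-fold higher (limma adjusted p = 0.00234). The mitochondrial carrier PHT3;2 had 48.4 and 33.7 against 7.47 and 13.4 in wild type, and was not called without wild type replicate 1 or without replicate 1 of the libraries labelled epl1a/b. Of 8 phosphatases and nucleases, 2 were higher and 0 lower, which is 25% called, against 46.7% of all genes. The secreted acid phosphatase PAP10 had 2382 and 2259 in the libraries labelled epl1a/b, against 994 and 1198 in wild type (log2 change 1.09 ± 0.10, limma adjusted p = 9.997e-05). RNS1, a secreted ribonuclease, had 282 and 143 against 33.1 and 71.3 in wild type (log2 change 2.03 ± 0.52, limma adjusted p = 0.0353), and lost its call without wild type replicate 1, without replicate 1 of the libraries labelled epl1a/b, and in edgeR's quasi-likelihood test (edgeR adjusted p = 0.0557).

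Among 11 lipid genes tested, 6 were lower and 1 higher, which is 63.6% called, against 46.7% of all genes (24.1% lower and 22.5% higher). The 3 with the largest falls make plastid sulfolipid or galactolipid. UGP3, which supplies the sugar nucleotide for sulfolipid, had 1747 and 1766 normalised counts in the libraries labelled epl1a/b, against 3870 and 3507 in wild type (2.097-fold lower, limma adjusted p = 2.98e-05). MGD1, the galactolipid synthase of the inner envelope, had 783 and 829 against 1655 and 1579 in wild type (2.01-fold lower, limma adjusted p = 3.53e-05). DGD1, which adds the second galactose, was 1.84-fold lower (limma adjusted p = 7.87e-05). SQD1, which acts just before SQD2, did not pass the test (log2 change -0.22 ± 0.09, limma adjusted p = 0.0815). NPC4, a phospholipase that breaks down membrane phospholipid, was the 1 lipid gene that was higher (log2 change 0.60 ± 0.13, limma adjusted p = 0.00826), and it was called in full and when wild type replicate 2 was left out, but not when any other library was. The shoot marker sums given above also lay below wild type in those libraries, and their part in the lipid values was not tested.

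In the list for root growth under low phosphate, 3 of 6 were higher and 0 lower, which is 50% called, against 46.7% of all genes. LPR1, a multicopper oxidase that stops primary root growth when phosphate is low, had 585 and 693 normalised counts in the libraries labelled epl1a/b, against 94.0 and 98.5 in wild type. The values were far apart, with a 6.56-fold higher level (log2 change 2.71 ± 0.12, limma adjusted p = 3.39e-06). Its relative LPR2 was 1.90-fold higher (limma adjusted p = 0.000201), and ALS3, a transporter-like protein of the same response, was 1.67-fold higher (limma adjusted p = 0.00304). Of the 12 root markers, 4 were lower and 1, SCR, was higher in those libraries, with a median log2 change of -0.65, and their part in these values was not tested.

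Kept in foil, Col-0 seedlings had more PHO2 and less PHT1;1 and IPS1 transcript than those in the light. There was 1 library of each, so these are values of 2 libraries with no test. Ratios are of TMM-scaled CPM (counts scaled to library size) with a prior count of 2, and the 95% intervals (exact, Clopper-Pearson) cover counting error only. Of the 10 genes, 1 was past 2-fold higher in dark and 2 past 2-fold lower, against 15.7% and 19.4% of the 21128 genes with at least 10 counts. That is 3 of 10, against 35.1% past 2-fold among all genes. With library totals in place of TMM, 3 of the 10 were past 2-fold higher (PHO2, with SPX1 at a log2 ratio of 1.16 and SPX3 at 1.09) and 2 lower, and the split over all genes was 4341 higher and 3184 lower in dark, against 3321 and 4097 with TMM. The median log2 ratio was -0.42 over the 10 genes and -0.02 over all.

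**Figure D3:**
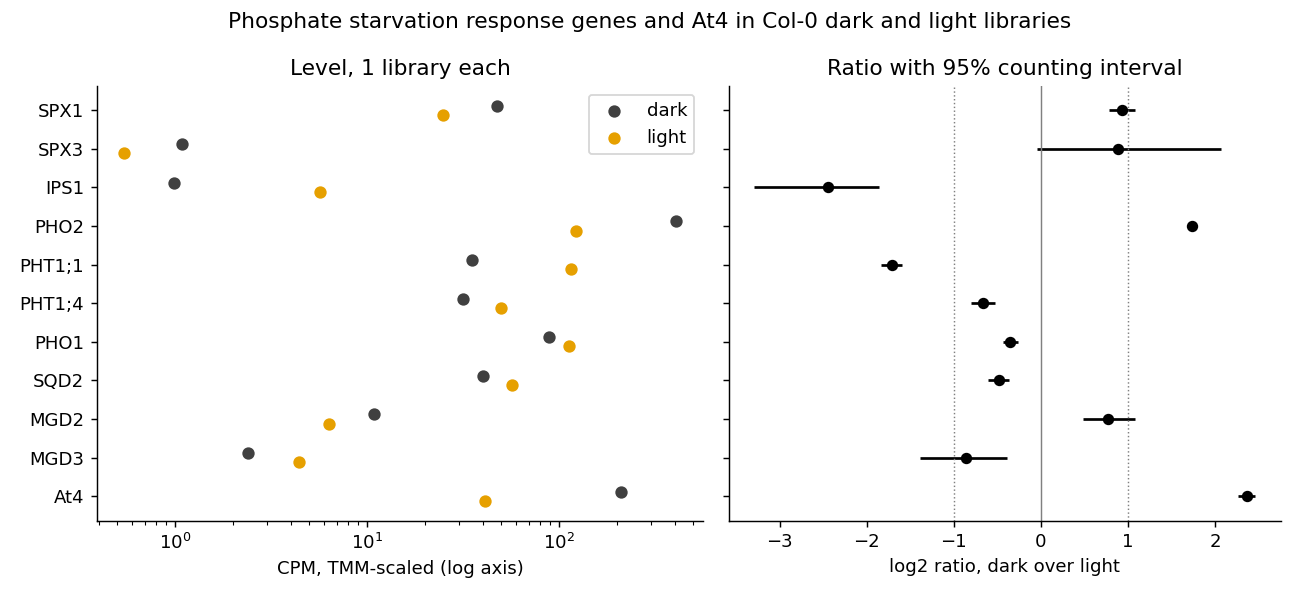
Left, TMM-scaled CPM (log axis) of the 10 genes and At4 in the dark library (grey) and the light library (orange). Right, the log2 ratio of dark over light with its 95% counting interval, and dotted lines at 2-fold in each direction; PHO2 and At4 lie past the line on the higher side and IPS1 and PHT1;1 past it on the lower side.

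PHO2 had 8247 counts (406 CPM) in dark and 3139 counts (122 CPM) in light, a ratio of 3.32 with an interval of 3.19 to 3.46. Per kilobase of exon it was the highest of the 10 genes in dark, at 97.1 CPM, and stood at 29.2 CPM in light. IPS1 had 20 counts (0.984 CPM) in dark and 147 counts (5.71 CPM) in light, a ratio of 0.185 (0.102 to 0.276). IPS1 and PHO2 were thus at opposite ends of the 10 genes. At4, whose miR399 site shares the layout of the IPS1 site, went the other way from IPS1, with 4293 counts in dark and 1054 in light, a ratio of 5.14 (4.82 to 5.52). The intervals of the 2 RNAs lie on either side of 1 and far apart. Each MIR399 locus had 0 to 5 counts in dark and 0 in light.

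Both sensors had ratios above 1. SPX1 had 968 counts in dark and 642 in light, a ratio of 1.90 (1.72 to 2.11), just short of 2-fold. SPX3 had 22 and 14 counts, and its interval of 0.973 to 4.20 includes no difference. The 3 transporters had ratios under 1. PHT1;1 had 716 counts in dark and 2974 in light, a ratio of 0.305 (0.280 to 0.331), and it was the highest of the 10 per kilobase in light at 57.5 CPM, against 17.5 CPM in dark. PHT1;4, which lay within 2-fold, had 640 and 1281 counts (ratio 0.633, 0.574 to 0.696), so that PHT1;1 and PHT1;4 were nearly alike in dark per kilobase, at 17.5 and 15.7 CPM. PHO1 had 1794 counts in dark and 2895 in light (ratio 0.784, 0.739 to 0.832).

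The lipid enzymes all stayed within 2-fold. SQD2 had 822 counts in dark and 1457 in light (ratio 0.714, 0.655 to 0.778). MGD3 had 49 and 114 counts (0.553, 0.381 to 0.766), and MGD2 had 222 and 164 (1.70, 1.39 to 2.11). The MGD2 and MGD3 intervals lie on either side of 1. Shoot marker genes summed to 12781 CPM in dark and 59212 CPM in light, with 5 of 5 past 2-fold lower. Root marker genes summed to 425 CPM in dark and 175 CPM in light, with 5 of 12 past 2-fold higher and 0 lower. Seed marker genes, led by the storage protein gene CRA1, summed to 3888 CPM in dark and 20.3 CPM in light. The part of these shifts in the values of the phosphate genes was not tested.

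Among the related genes, 9 were past 2-fold higher and 9 lower in dark, of 55 kept. That is 32.7% past 2-fold, against 35.1% of all genes, so the count is near the background. On the higher side were SPX4 (ratio 2.36), NLA (2.14), RNS1 (2.47) and the aluminium-tolerance gene ALS3 (2.90). WRKY45, a lower-level gene with 145 counts in dark and 43 in light, had a ratio of 4.11 (3.02 to 6.14). GDPD1, a glycerophosphodiesterase, was also higher (2.54), though 44.7% of its exon length overlaps a neighbouring gene. The overlap was smaller for the other related genes, at most 10.2% (PHT4;1), with 9.13% for PAP10, 8.08% for NLA and 7.99% for PHT4;4. No source used here says whether reads were counted by strand. On the lower side were the plastid carriers PHT4;1 (0.143), PHT2;1 (0.194) and PHT4;4 (0.402), with PAP10 (0.228), the zinc finger gene ZAT6 (0.427) and LPR2 (0.419). LPR1, which was higher in the libraries labelled epl1a/b, had 28 counts in dark and 93 in light (0.395, 0.240 to 0.587). The acid phosphatase gene PAP17 (1.97), the malate channel gene ALMT1 (1.83), UGP3 (0.577) and DGD1 (0.609) stayed within 2-fold. PHR1, with a ratio of 1.11 (1.01 to 1.22), and PHL1, with 1.21 (1.01 to 1.46), were close to equal in dark and light.

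Set side by side, the 2 comparisons share no library. PHT1;1 and MGD3 were higher in the libraries labelled epl1a/b than in wild type, and had ratios under 1 in dark. In those libraries SQD2 and PHO1 were lower than in wild type, and both had ratios under 1 in dark as well. PHO2, which had the highest dark ratio of the 10, did not pass the test between genotypes. Whether the effects of genotype and of darkness differ was not tested, since the tables were normalised separately and dark and light have 1 library each.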

How the data were processed

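Gene-level RNA-seq tables of 6 libraries were used. The submitters' processing notes name HISAT2, featureCounts, edgeR and TAIR10, with no versions or settings. The genotype table holds a normalised signal, which the authors deposited, per the file headers, as normalised read counts. The dark and light table holds counts that are not normalised, per the file headers. The normalised values could be inverted to whole reads for 32548 of 32548 genes (100% within a relative tolerance of 1e-06), which served for count tests as alternatives. No source used here says which library was read as single-end 50 bp or paired-end 150 bp.

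The main test was limma 3.58.1 (R 4.3.3; trend and robust) on log2(value + 1), with genotype only, for the 23658 genes that reached 1 in 2 or more libraries. Fold changes on this scale understate the change of low genes. edgeR 4.0.16 and DESeq2 1.42.0 were run on the recovered reads. Dark and light counts were scaled by TMM in edgeR and kept at 10 or more counts over both libraries. The scripts were tested on simulated data. Replicate numbers did not pair the libraries, so the main model had no block.

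The 10 genes, the gene lists and the tests were chosen with earlier results of these data known. Named from the lists were the close relatives and regulators fixed by name, up to 4 called genes of each list with the largest change at a mean of at least 10, and up to 3 with the largest dark to light ratio at a mean of at least 5 CPM. Outside these rules, WRKY6 and WRKY75 were added for the genotypes, and WRKY45 and LPR1 for dark and light. A leave-one-out fit with 1 library of a genotype assumes that it varies like the other genotype. Sequences are from RefSeq TAIR10.1, in which all 32548 genes have a model.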

Additional observations from a re-analysis of the deposited data

How the results depend on the processing

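Over 13 alternatives for the genotypes and 4 for darkness, 4 of 10 phosphate genes were called by limma with a pseudocount of 0.1 or 5 or a minimum value of 10, and by edgeR's quasi-likelihood test, and 5 with equal library totals or DESeq2. Without a filter on low values, 0 of the 10 were called (0 higher, 0 lower; SQD2 had a limma adjusted p of 0.0623) and 9 of the related genes in place of 32, while calls over all genes were 1074 higher and 1918 lower. Leaving out 1 library gave 2 to 4 called of the 10, 0 to 1 higher and 1 to 3 lower, 21 to 25 related genes, and 2660 to 3689 higher and 3836 to 4147 lower over all genes. With equal library totals the all-gene median log2 change was 0.25 and the split 8749 higher and 3655 lower, against 5333 and 5707; PHT1;4 was then called (0.32), SPX2 was called (0.41), PHR1 was not (-0.18), and PHO2 (0.23), MGD2 (0.12) and SQD1 (0.020) turned positive. Leaving out 1 library turned the sign of 6 genes that were not called, over the log2 ranges -0.29 to 0.44 (SPX3), -0.022 to 0.18 (PHT1;4), -0.35 to 0.34 (PHO2), -0.32 to 0.075 (MGD2), -0.075 to 0.32 (At4) and -0.38 to 0.79 (PHT1;2). With library totals in place of TMM, 5 of the 10 genes were past 2-fold in dark against light, 3 of them higher, SPX1 (log2 ratio 1.16) and SPX3 (1.09) joining PHO2, and the median log2 ratio of all genes was 0.21. The causes were not tested.

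Replicate numbers did not pair the libraries: differences between replicates of the same number had a correlation of -0.141 over all tested genes and -0.266 over genes with a mean of at least 100. With the replicate block, 4 of the 10 were called (2 higher, 2 lower), 30 related genes, and 4578 higher and 5099 lower over all genes; RNS1 was not called (limma adjusted p = 0.0724). With crossed pairing, chosen after seeing the data, 6 of the 10 were called, 34 related genes, and 5353 higher and 5585 lower over all genes. Depth limits the low genes: IPS1 and SPX3 had 20 and 22 counts in dark, and MIR399 loci could not be compared.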

Other observations

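Over the 6 libraries, the genes whose centred log2 profile lay closest to that of MGD3 among 12977 of like level were AT5G42110, AT2G41150 and AT5G15640, at Euclidean distances of 0.0908, 0.0921 and 0.1. For SQD2, among 6339 genes of like level, they were AT3G45850, AT5G23040 (CDF1) and AT4G32420, at 0.0709, 0.0756 and 0.0795. With 4 genotype libraries and 2 of darkness and light, many genes share a profile, and these distances are a description only.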
